A study of Homo sapiens with 10 samples.

Results

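Asparagine-linked glycosylation was followed through 44 genes that were chosen by symbol from the 36459 symbols of the deposited expression table. No measured value entered the rule, but the genes were chosen with earlier results of these data known. They fall into 28 genes of precursor synthesis, 10 subunits of the oligosaccharyltransferase and 6 genes of glycan trimming and the folding check. All 44 had at least 1 TPM (a transcript's share of the library, corrected for length) in 2 or more of the 10 libraries, the limit for testing, as did 13418 genes in all.

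In this pathway an oligosaccharide is built step by step on dolichol, a long isoprenoid lipid of the endoplasmic reticulum (ER) membrane, first on the cytosolic and then on the luminal face. The oligosaccharyltransferase moves the finished glycan onto asparagines of nascent proteins, and glucosidases, a glucosyltransferase and a mannosidase then trim and reglucosylate it while the protein folds. Its sugars are drawn from nucleotide sugars and dolichol-linked sugars that cells make mainly from glucose.

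The cells were MDA-MB-231, a human triple-negative breast cancer line. RNA-seq was run on 2 WT control clones (called Ctrl in the titles) and 3 BACH1 KO clones, each kept for 40 hours in medium with 4.5 g/liter or 0 g/liter glucose, with 1 library per clone and glucose level. BACH1 is a heme-binding transcription factor that the authors describe as a repressor of antioxidant genes and an activator of genes of tumor metastasis. The KO clones were made with Cas9 protein and synthetic guides, isolated as colonies from sparsely seeded cells and identified by Western blot. Each KO or WT library therefore stands for 1 clone, so a difference in a single KO clone cannot be told apart from one between clones.

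The libraries held 12259 to 12910 genes at 1 TPM or more, and mitochondrially encoded transcripts made up 22.4% to 29.7% of all TPM. KO clone 1 without glucose stood apart with 29.1% mitochondrial TPM, against 22.4% to 24.7% in the other 4 libraries without glucose. The same clone was also highest with glucose, at 29.7% against 26.1% to 27.9%. In every clone the share was lower without glucose. BACH1 transcript was 8.61 and 8.13 TPM in WT and 5.18, 2.84 and 3.42 TPM in KO with glucose, and 19.7 and 20.6 TPM in WT and 12.6, 24.0 and 17.2 TPM in KO without it. The genotypes overlapped without glucose, and a transcript level does not measure the loss of the protein. Of the markers of the line, VIM (1321 to 2066 TPM), CD44 (754 to 889 TPM) and EGFR (76.9 to 122 TPM) were high, and ESR1, PGR and CDH1 stayed under 1 TPM in every library. SPARC, a mesenchymal marker, was low at 0.778 to 6.78 TPM. ERBB2 read 14.3 to 37.2 TPM and EPCAM 6.72 to 11.3 TPM. Of the 8 markers of immune, endothelial, fibroblast and kidney cells, 7 stayed under 1 TPM, and COL1A1 read 4.53 to 11.8 TPM.

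Promoters are shown for the 3 called genes that had an entry in the RefSeq table (GRCh38.p14), since ER stress factors bind elements that hold CCACG, the letters read by XBP1 and ATF6. Each sequence is the 250 bases before the gene's start, read on the gene's strand, with CCACG, or CGTGG where the element lies on the other strand, in capitals.
NUS1 (chr6:117675219-117675468, plus strand): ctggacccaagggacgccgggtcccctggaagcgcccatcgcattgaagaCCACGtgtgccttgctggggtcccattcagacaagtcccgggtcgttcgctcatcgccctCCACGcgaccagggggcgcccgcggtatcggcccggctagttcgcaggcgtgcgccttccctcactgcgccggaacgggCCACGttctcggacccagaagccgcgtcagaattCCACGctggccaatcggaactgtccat
DOLK (chr9:128947604-128947853, minus strand): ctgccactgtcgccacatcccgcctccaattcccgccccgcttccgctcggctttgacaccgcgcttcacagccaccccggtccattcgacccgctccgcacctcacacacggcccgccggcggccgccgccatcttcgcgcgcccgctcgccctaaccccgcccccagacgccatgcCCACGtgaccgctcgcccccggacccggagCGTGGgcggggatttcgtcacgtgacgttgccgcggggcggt
OSTC (chr4:108650349-108650598, plus strand): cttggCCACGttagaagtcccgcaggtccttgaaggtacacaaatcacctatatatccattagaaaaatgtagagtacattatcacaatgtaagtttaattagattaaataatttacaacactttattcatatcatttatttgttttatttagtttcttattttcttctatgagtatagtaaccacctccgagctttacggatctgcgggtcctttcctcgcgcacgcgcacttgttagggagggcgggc

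NUS1, DOLK and OSTC held 4, 2 and 1 such elements in these stretches, and DOLK moved in the opposite direction to the other genes shown, as described below. Promoters from 250 bases before to 50 bases after the start were searched on both strands, with entries for 39 of the 44 genes (52 promoters). RPN1, TUSC3, STT3B, MOGS and ALG10 have no entry. The whole ER stress element, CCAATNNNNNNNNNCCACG, was found only in ALG12, against 0.0769% of all 35116 promoters and 0.138% of those of tested genes. The core of the unfolded protein response element, TGACGTGG, was found only in DHDDS. It was in 0.729% of all promoters and 0.83% of those of tested genes. These windows are printed because they are the sole full matches, with the match in capitals and the reverse complement shown for DHDDS.
ALG12 (chr22:49918539-49918587, minus strand): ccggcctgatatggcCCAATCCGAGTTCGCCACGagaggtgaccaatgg
DHDDS (chr1:26432299-26432329, plus strand): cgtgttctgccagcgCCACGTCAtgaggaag

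Neither ALG12 nor DHDDS was called for glucose removal in either genotype. The shorter ER stress element II (ATTGG and CCACG with 1 base between them) was in 0 of the 52 promoters. It was in 0.0541% of all promoters and 0.0899% of those of tested genes. The ATF4 core, TGATGNAA, was also in 0 of the 52, against 3.62% of all promoters and 1.97% of those of tested genes. CCACG alone, a search added after the data were seen and contained in the longer elements, was in 69.2% of the members' promoters, 38.1% of all promoters and 47.9% of the promoters of tested genes. The median GC content was 61.2%, 58.7% and 64.7% in the same order. A match describes letters in a window and was not tied to the binding of any factor.

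In the fit without a clone block, few of the 44 genes were called for glucose removal. Those called higher were NUS1 and subunits of the oligosaccharyltransferase. More members, and more of all tested genes, were called with clone as a block, as given below. In WT, NUS1, OSTC, RPN1 and TUSC3 rose and DOLK fell (limma on log2(TPM + 1), Benjamini-Hochberg adjusted over all tested genes). These 4 higher genes stand against 7.47% of all tested genes called higher, and the single lower one against 15.9% called lower. In KO, NUS1, OSTC and RPN1 rose and DOLK fell, that is 3 higher and 1 lower, against 9.05% and 19.9% of all tested genes. The members' shares called were thus close to or under the background. The median log2 fold change of the 44 genes was -0.13 in WT and -0.02 in KO, against -0.17 and -0.15 over all tested genes. At an unadjusted p under 0.05 there were 14 members in each genotype, or 31.8%, against 37.5% of all tested genes in WT and 41.4% in KO. Below, called refers to this test with all libraries, TPM as deposited and no block, unless another setting is named.

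The WT calls needed both libraries of each WT group. With any 1 of the 4 WT libraries left out, the lone library is assumed to vary like the other groups, so only fold changes are given. Over all 10 leave-out fits, the log2 fold change in WT ran from 0.36 to 0.57 for NUS1 and from 0.41 to 0.48 for OSTC. It ran from 0.29 to 0.42 for RPN1, 0.23 to 0.40 for TUSC3 and -0.71 to -0.60 for DOLK. KO clone 1 at 0 g/liter had the highest mitochondrial share of the libraries without glucose. With it left out, 5 members were called higher and 4 lower in WT, and 6 higher and 3 lower in KO. The part of the mitochondrial share in these counts was tested only by rescaling, which gave 1 higher and 2 lower in WT and 3 higher and 4 lower in KO. Of all 13933 genes tested after rescaling, 1023 were called higher and 2523 lower in WT, and 1202 and 3321 in KO. In WT, which shares its estimate of the spread with KO, the higher count was 1 without KO clone 2 and 2 without KO clone 3 at 4.5 g/liter and 2 with KO clone 2 at 0 g/liter left out. The lower count was 2 without KO clone 1 or 3 at 4.5 g/liter, and likewise for KO clone 2 or 3 at 0 g/liter. In KO, 3 were lower without KO clone 1 at 4.5 g/liter and 2 without KO clone 2 at 0 g/liter. No share of all tested genes is given beside these leave-out counts, so they are not read as particular to the members.

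**Figure D1:**
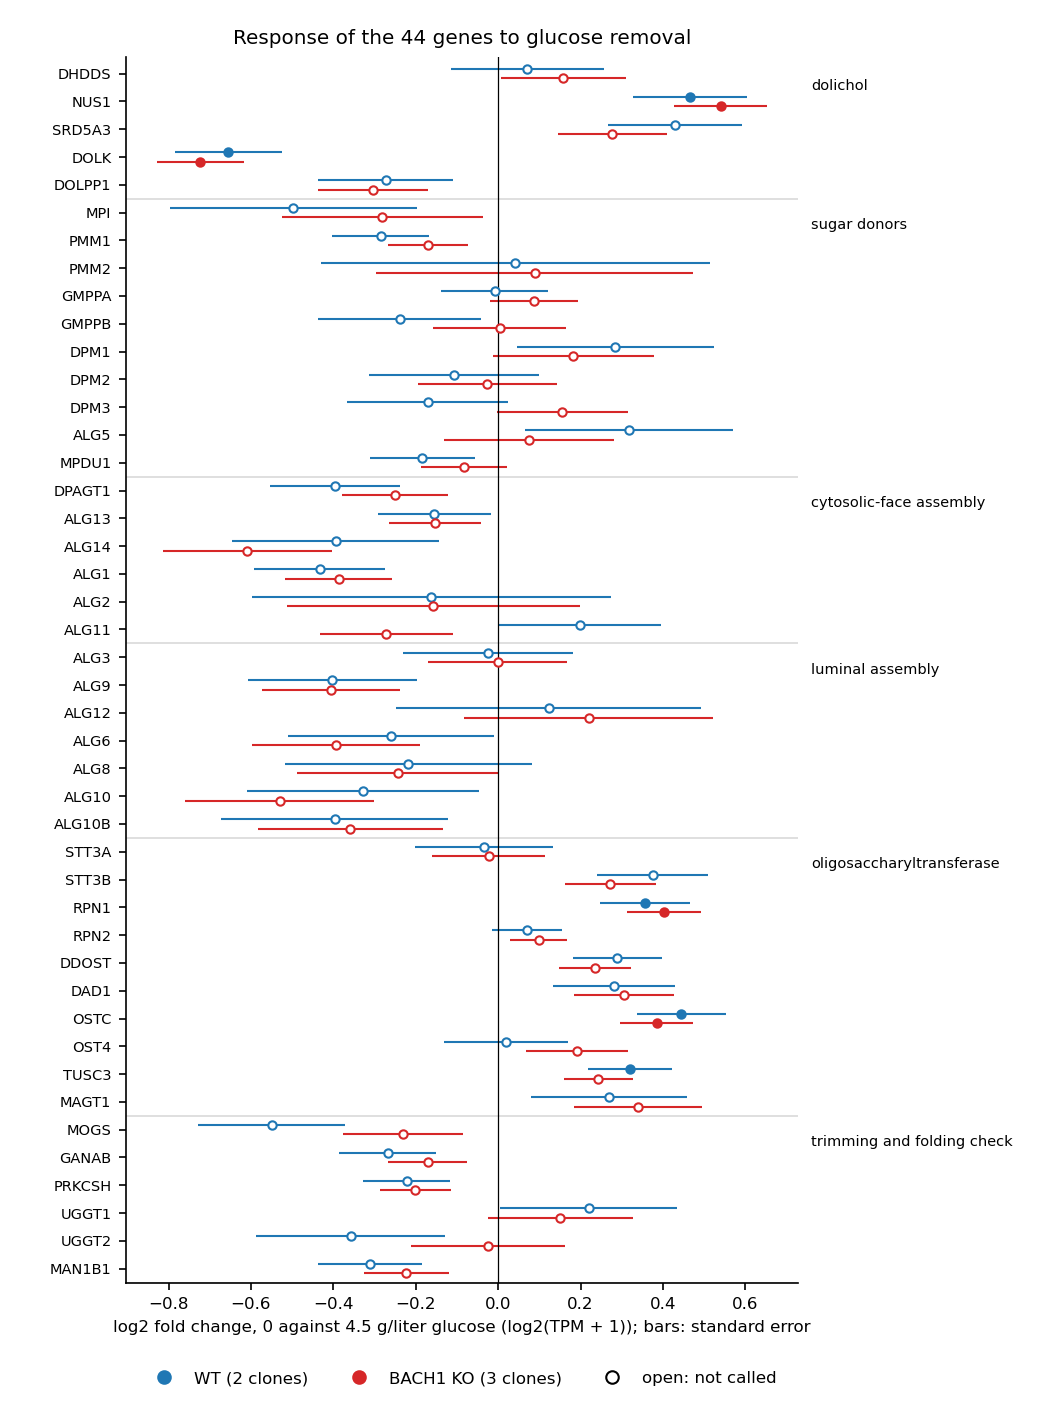
Log2 fold change of log2(TPM + 1) at 0 against 4.5 g/liter glucose for all 44 genes by role, with standard errors, in WT (blue, 2 clones) and BACH1 KO (red, 3 clones). Filled points passed the adjusted test. The oligosaccharyltransferase block lies right of 0 except for STT3A, and DOLK is the lowest gene in both genotypes.

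The same clones were grown at both glucose levels, and with clone as a replicate block the counts grew. In WT 8 members were called higher and 7 lower, against 12.4% and 28.6% of all tested genes under that fit. In KO 7 were called higher and 8 lower, against 14.6% and 31.9%. The genes called higher under the block in both genotypes were NUS1, STT3B, RPN1, DDOST, DAD1, OSTC and TUSC3, and SRD5A3 was added in WT. Those called lower in both were DOLK, MPI, ALG1 and ALG9, with DPAGT1, MOGS and GANAB added in WT and ALG14, ALG6, ALG8 and PRKCSH in KO.

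TPM values sum to a constant in every library, so a level is relative to the whole. Scaling the libraries to the median ratio of all genes brought the median of all tested genes to -0.02 in each genotype and made the higher calls outnumber the lower ones. Under it 9.84% of genes were called higher and 6.88% lower in WT, and 12.1% and 10.7% in KO. Of the members, 7 were then higher and 1 lower in WT, and 8 and 1 in KO. DOLK was the only member called lower under that scaling. Directions given below are for TPM as deposited. On it, every library without glucose lay below every library with it for 47.7% of the 44 genes in WT and 11.4% in KO. The shares of all tested genes were 50.6% and 27.7%. It lay above for 31.8% and 18.2% of the 44 genes, against 24.8% and 11.8%. How often all tested genes were lower, or higher, in 5 of 5 clones was not counted. Under the median-ratio scaling the log2 fold change turned from below to above 0 for DPM2, ALG3 and STT3A in both genotypes, for GMPPA and ALG13 in WT and for MPDU1 and UGGT2 in KO, none of them called in either fit.

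Summed over the genes of a role, TPM of the oligosaccharyltransferase was higher without glucose in every clone and that of both assembly roles was lower in every clone. The oligosaccharyltransferase sum was 1550 and 1562 TPM in the WT clones with glucose and 1691 and 1790 TPM without it. In the KO clones it was 1454, 1513 and 1451 TPM with glucose and 1620, 1797 and 1676 TPM without. The luminal assembly sum went from 182 and 182 TPM to 164 and 158 TPM in WT, and from 171, 182 and 177 TPM to 156, 158 and 151 TPM in KO. The trimming sum was lower without glucose in 4 of the 5 clones and was 579 TPM with and 580 TPM without glucose in KO clone 1. These sums are weighted to the abundant genes and are given without a test. A lower TPM without glucose was common, as 4821 of the 13418 tested genes had a log2 fold change above 0 in WT and 4868 in KO. The medians over all tested genes were -0.17 and -0.15, so a fall of a sum is not by itself particular to its role.

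**Figure D2:**
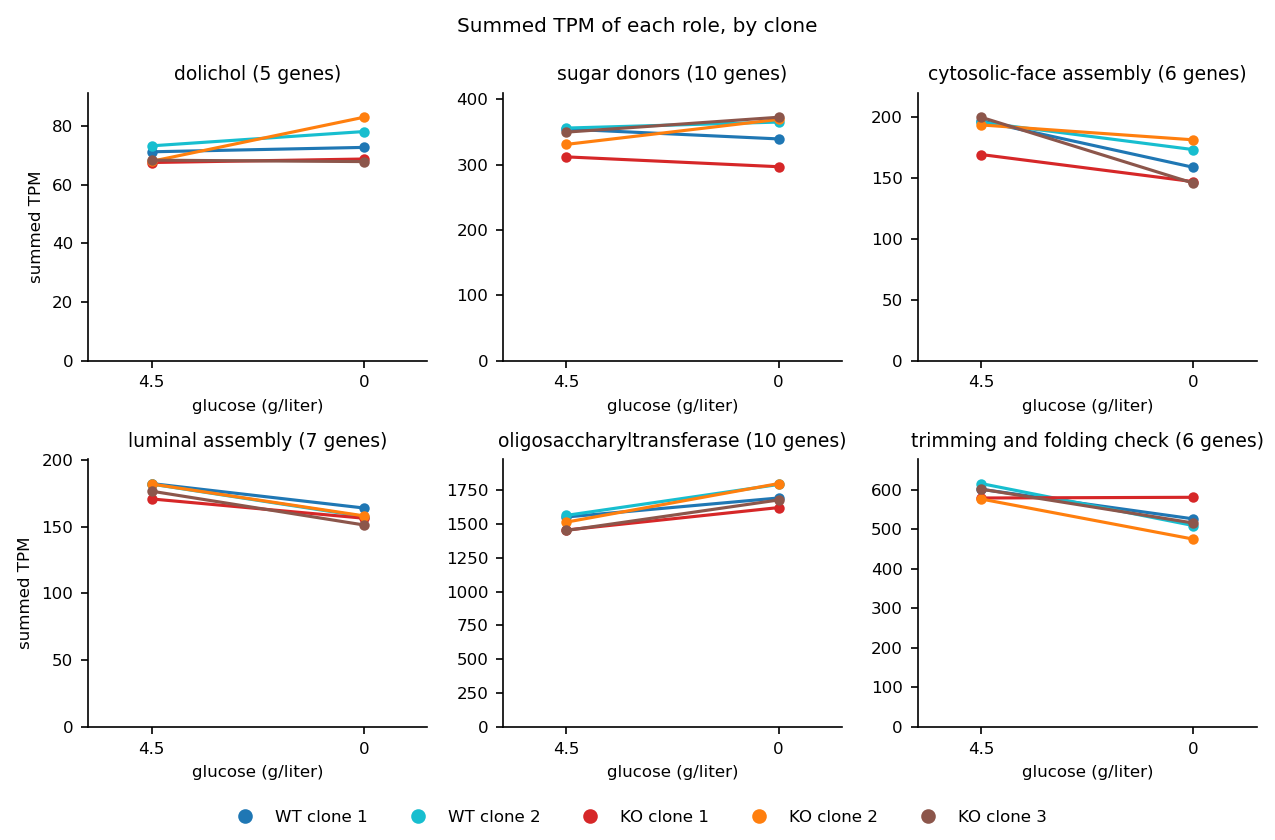
Summed TPM of the genes in each role at 4.5 and 0 g/liter glucose, 1 line per clone, each axis from 0. The oligosaccharyltransferase lines run from 1451 to 1562 TPM up to 1620 to 1797 TPM, and the luminal assembly lines run down in all 5 clones. Most tested genes had a log2 fold change below 0 in both genotypes.

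Dolichol supply held called genes of both directions, NUS1 and DOLK. NUS1, which with DHDDS forms the cis-prenyltransferase that makes the polyprenol chain, was at 19.5 and 19.8 TPM in WT with glucose and at 25.6 and 29.7 TPM without it. In KO it was at 18.7, 18.1 and 19.6 TPM with glucose and at 26.4, 31.97 and 25.3 TPM without. Every library without glucose lay above every library with it. The log2 fold change was 0.47 ± 0.14 (SE, n = 2 clones, limma adjusted p = 0.039) in WT and 0.54 ± 0.11 (n = 3 clones, adjusted p = 0.0079) in KO.

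DOLK, the kinase that phosphorylates dolichol to the carrier form, moved the other way. Its TPM was 18.7 and 17.3 in WT with glucose and 11.4 and 10.8 without it. In KO it was 16.95, 18.1 and 16.2 TPM with glucose and 10.8, 10.1 and 8.97 TPM without. The groups did not overlap in either genotype. The log2 fold change was -0.65 ± 0.13 (SE, limma adjusted p = 0.0087) in WT and -0.72 ± 0.11 (adjusted p = 0.0017) in KO. In KO both NUS1 and DOLK were also called under all 19 alternatives, and in WT NUS1 was called under 11 and DOLK under 15 of the 19.

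**Figure D3:**
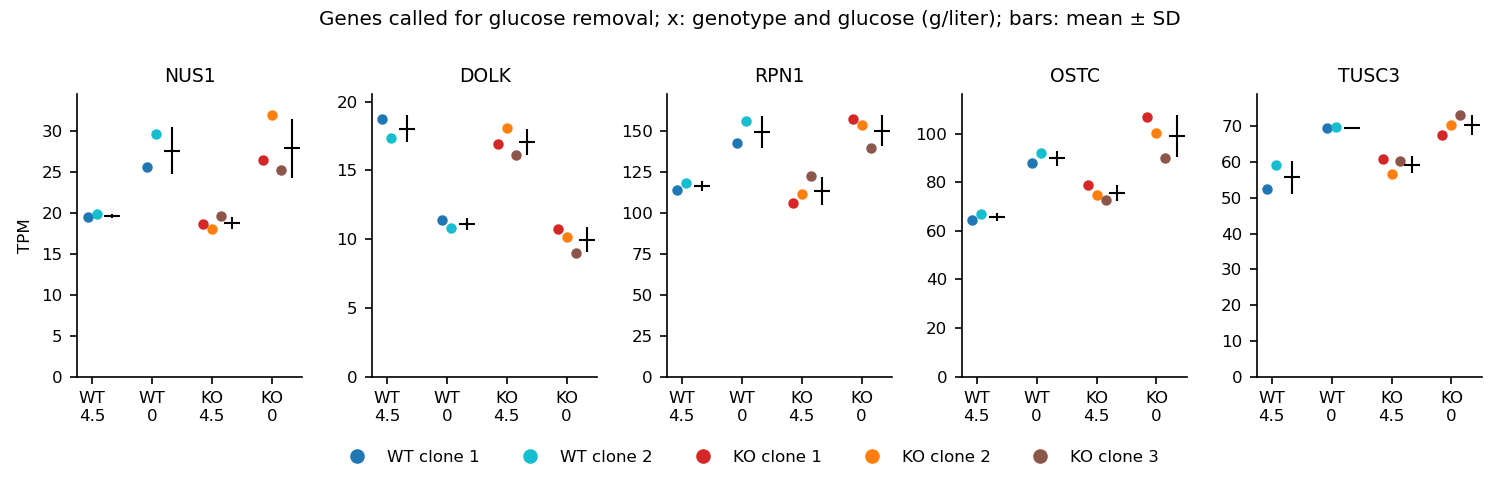
TPM of the 5 called genes in each library by genotype and glucose (g/liter), with group mean ± SD (n = 2 WT and 3 KO clones) and each axis from 0. Points without glucose lie above those with glucose for NUS1, RPN1, OSTC and TUSC3 and below them for DOLK.

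DHDDS, the catalytic partner of NUS1 and the most abundant dolichol gene, was not called. It was at 22.9 and 26.0 TPM in WT with glucose and 24.4 and 27.0 TPM without, and in KO at 21.5, 19.8 and 22.3 TPM with and 19.4, 30.1 and 22.9 TPM without. The groups overlapped, and its log2 fold changes were 0.07 and 0.16. SRD5A3, which acts in the reduction of polyprenol to dolichol, was higher without glucose in 5 of 5 clones, with log2 fold changes of 0.43 (adjusted p = 0.084) in WT and 0.28 (adjusted p = 0.145) in KO by limma. DOLPP1, the phosphatase that recycles dolichyl pyrophosphate, was lower in 5 of 5 clones at -0.27 and -0.30, and not called.

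None of the 10 genes of sugar donor synthesis was called in either genotype. The most abundant, DPM1, the catalytic subunit of dolichol-phosphate mannose synthase, was at 75.7 and 79.1 TPM in WT with glucose and 84.3 and 106 TPM without. The KO clones had 77.9, 74.7 and 90.6 TPM with glucose and 65.6, 100 and 117 TPM without. DPM1 was lower only in KO clone 1. Its limma adjusted p in KO was 0.515, and DPM1 was called higher when KO clone 1 at 0 g/liter was left out.

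MPI, which interconverts fructose 6-phosphate and mannose 6-phosphate, was lower in 5 of 5 clones, with log2 fold changes of -0.50 in WT and -0.28 in KO. PMM1, a phosphomannomutase, and MPDU1, needed for the use of dolichol-linked mannose and glucose, were also lower in 5 of 5 clones, with fold changes of -0.29 and -0.17 for PMM1 and -0.18 and -0.08 for MPDU1. The sign of MPDU1 in KO turned under median-ratio scaling (0.06). ALG5, the dolichol-phosphate glucose synthase, was higher in 4 of 5 clones at 0.32 and 0.08. GMPPA and GMPPB, the regulatory and catalytic subunits of GDP-mannose pyrophosphorylase, and DPM2, which stabilises the synthase, gave log2 fold changes of -0.24 to 0.09. The role's median was -0.14 in WT and 0.04 in KO, and in WT it turned to 0.02 under median-ratio scaling.

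Some donor and assembly genes differed more between KO clones than between glucose levels. PMM2, the main phosphomannomutase and the gene of the commonest congenital disorder of glycosylation, was at 17.9 TPM with and 14.7 TPM without glucose in KO clone 1. It was at 31.3 to 44.2 TPM in the other KO clones and at 31.5 to 36.8 TPM in WT. The highest KO clone mean was 2.34 times the lowest for PMM2, 2.30 times for ALG12 and 2.26 times for ALG2, the last also lowest in KO clone 1. Of the 44 genes, 9 had a ratio of at least 1.5 among the 3 KO clones and 0 had one between the 2 WT clones. The median ratio was 1.23 and 1.05, and a range over 3 clones is larger than one over 2 for that reason alone. These genes were picked out after their values were seen.

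Of the 6 genes that build the glycan on the cytosolic face, none was called, and ALG11 in WT was the exception to log2 fold changes below 0. Their median log2 fold change was -0.28 in WT and -0.26 in KO, against -0.17 and -0.15 over all tested genes. Under median-ratio scaling the role's medians were -0.12 and -0.13. ALG13, the most abundant and with ALG14 the enzyme that adds the second N-acetylglucosamine, was at 63.7 and 60.6 TPM in WT with glucose and 51.2 and 60.6 TPM without. Among KO clones it read 59.7, 53.2 and 62.85 TPM with and 56.7, 54.6 and 46.6 TPM without, and these groups overlapped. ALG14, the membrane anchor of ALG13, was at 17.001 and 12.2 TPM in WT with glucose and 11.04 and 10.4 TPM without. Values in the KO clones were 18.2, 14.5 and 12.5 TPM with glucose and 8.87, 12.5 and 7.49 TPM without. It was lower in 5 of 5 clones, at -0.39 ± 0.25 in WT (SE, limma adjusted p = 0.289) and -0.61 ± 0.21 in KO (adjusted p = 0.0519).

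ALG1, which adds the first mannose, was lower in 5 of 5 clones and its groups did not overlap, with log2 fold changes of -0.43 in WT (limma adjusted p = 0.0776) and -0.39 in KO (adjusted p = 0.051). DPAGT1, the enzyme of the first step and the target of tunicamycin, was also lower in 5 of 5 clones, at -0.40 and -0.25. With the block ALG1 was called in both genotypes and DPAGT1 in WT. ALG2 and ALG11, which add the following mannoses, were not called in either genotype, and ALG11 had opposite signs, 0.20 in WT and -0.27 in KO.

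None of the 7 genes of luminal assembly was called either, and their medians were -0.26 in WT and -0.36 in KO. Over all tested genes the medians were -0.17 and -0.15, and under median-ratio scaling those of this role were -0.11 and -0.27. In KO, rescaling without mitochondrial genes called ALG9 lower, and leaving out KO clone 1 at 4.5 g/liter called ALG10 lower. ALG3, the first luminal mannosyltransferase and the most abundant, was at 67.0 and 66.6 TPM in WT with glucose and 68.0 and 63.4 TPM without. In KO it was at 57.1, 68.3 and 92.9 TPM with and 64.3, 67.6 and 83.3 TPM without, a level fold change of -0.02 in WT and 0.00 in KO. ALG9, which adds later mannoses, was lower in 5 of 5 clones, at -0.40 and -0.41. The glucosyltransferases ALG6 and ALG8 were lower in 5 of 5 clones as well, at -0.26 and -0.39 for ALG6 and -0.22 and -0.24 for ALG8. ALG12, a mannosyltransferase with the full ER stress element in its promoter, was higher in 4 of 5 clones at 0.12 and 0.22, both within 1 SE of 0.

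ALG10, which adds the last glucose, was at 3.26 and 2.42 TPM in WT with glucose and 2.35 and 1.76 TPM without. The KO clones had 1.82, 3.98 and 3.79 TPM with and 1.87, 1.91 and 1.67 TPM without. Its copy ALG10B was at 2.28 and 1.45 TPM in WT with glucose and 0.955 and 1.37 TPM without, and in KO at 1.33, 2.58 and 2.64 TPM with and 1.47, 1.75 and 1.12 TPM without. Their transcripts share 1839 stretches of 31 bases, 43.5% of those of ALG10 and 16.3% of those of ALG10B, so the split of reads between them is uncertain. Both were low, each was lower in 4 of 5 clones, and neither was called.

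The oligosaccharyltransferase subunits were mostly higher without glucose. Their median log2 fold change was 0.28 in WT and 0.26 in KO, and 9 of 10 subunits were above 0 in each. RPN1, OSTC and TUSC3 were called in WT, and RPN1 and OSTC in KO, against 7.47% and 9.05% of all tested genes called higher. The subunits STT3B, RPN1, RPN2, DDOST, DAD1, OSTC and TUSC3, 7 of 10, were higher without glucose in all 5 clones. The share of all tested genes with that pattern was not counted. Every library without glucose lay above every one with it for 8 of 10 subunits in WT and 7 of 10 in KO, against 24.8% and 11.8% of all tested genes. With median-ratio scaling 5 subunits were called higher in WT and 7 in KO, against 9.84% and 12.1% of all tested genes. The median stayed above 0 under each scaling tried.

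**Figure D4:**
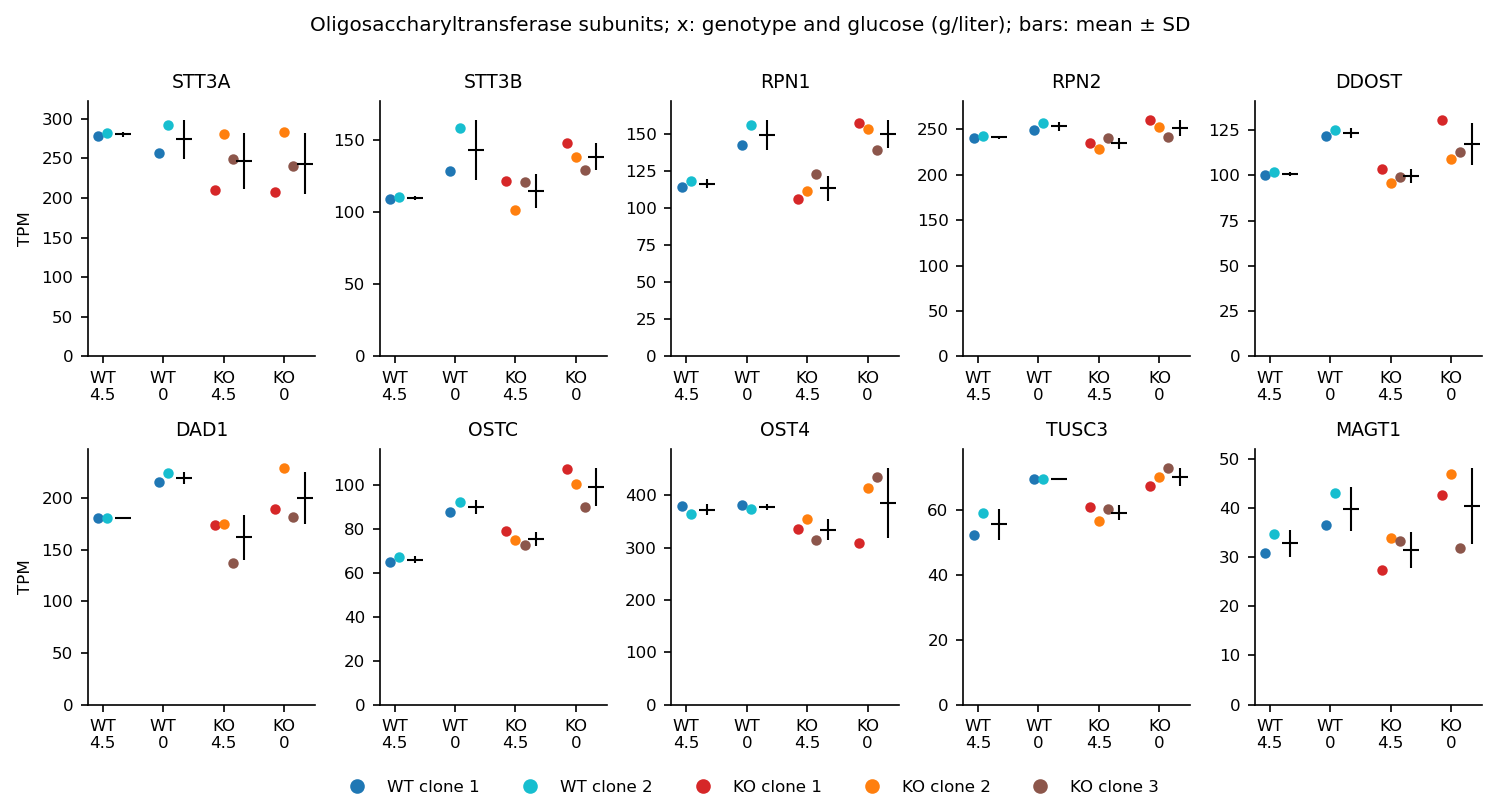
TPM of the 10 oligosaccharyltransferase subunits in each library by genotype and glucose (g/liter), with group mean ± SD (n = 2 WT and 3 KO clones) and each axis from 0. STT3A and OST4 overlap between glucose levels, while RPN1, OSTC, DDOST and STT3B sit higher without glucose in every clone.

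RPN1, or ribophorin I, a core subunit, was at 114 and 119 TPM in WT with glucose and 143 and 157 TPM without. Among KO clones it read 106, 112 and 123 TPM with glucose and 158, 154 and 140 TPM without. The groups did not overlap, and the log2 fold change was 0.36 ± 0.11 in WT (SE, limma adjusted p = 0.0441) and 0.40 ± 0.09 in KO (adjusted p = 0.01). OSTC, a subunit of the STT3A complex that meets the translocon, was at 64.6 and 67.0 TPM in WT with glucose and 87.8 and 92.0 TPM without. Values in the KO clones were 79.0, 74.7 and 72.7 TPM with and 107, 100 and 89.9 TPM without. Here too no library with glucose reached the level of one without, and the fold changes were 0.44 ± 0.11 (adjusted p = 0.019) and 0.39 ± 0.09 (adjusted p = 0.0115).

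Neither catalytic subunit, STT3A or STT3B, was called in either genotype. STT3A, which glycosylates proteins as they enter the ER, was the more abundant, at 278 and 282 TPM in WT with glucose and 257 and 292 TPM without. In KO it was at 211, 281 and 249.5 TPM with and 207, 283 and 240 TPM without, with log2 fold changes of -0.03 and -0.02 and overlapping groups. STT3B, which acts on sites that STT3A skips, was at 109 and 111 TPM in WT with glucose and 129 and 158 TPM without. The KO clones had 122, 101 and 121 TPM with and 148, 138 and 130 TPM without. Its groups did not overlap, and its fold changes were 0.38 (limma adjusted p = 0.073) and 0.27 (adjusted p = 0.0945), or 0.54 (adjusted p = 0.0367) and 0.41 (adjusted p = 0.0376) with median-ratio scaling.

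The share of STT3A in the TPM of both catalytic subunits does not depend on such a scaling. It was 71.9% and 71.8% in WT with glucose and 66.6% and 64.8% without, and in KO 63.3%, 73.5% and 67.3% with and 58.3%, 67.2% and 64.9% without. It was lower without glucose in 5 of 5 clones, by a mean of -5.18 percentage points (SD 1.77). The exact two-sided sign-flip permutation over the clones gave p = 0.0625, the smallest that 5 clones allow.

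TUSC3 and MAGT1 are the alternative oxidoreductase subunits of the STT3B complex. TUSC3 was at 52.4 and 59.055 TPM in WT with glucose and 69.6 and 69.7 TPM without, and in KO at 60.9, 56.7 and 60.3 TPM with and 67.6, 70.4 and 73.2 TPM without. The groups did not overlap, with log2 fold changes of 0.32 ± 0.10 in WT (SE, limma adjusted p = 0.0498) and 0.24 ± 0.08 in KO (adjusted p = 0.0543). MAGT1 was at 30.8 and 34.8 TPM in WT with glucose and 36.6 and 43.0 TPM without. Among KO clones it read 27.3, 33.8 and 33.3 TPM with and 42.6, 46.9 and 31.9 TPM without. It was higher in 4 of 5 clones at 0.27 and 0.34 and was not called.

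The MAGT1 share of MAGT1 plus TUSC3 showed no common direction. It was higher without glucose in 3 of 5 clones, with a mean difference of 0.717 points (SD 4.96) and an exact two-sided sign-flip p = 0.75. Left without KO clone 1, the mean difference was -1.02 points.

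**Figure D5:**
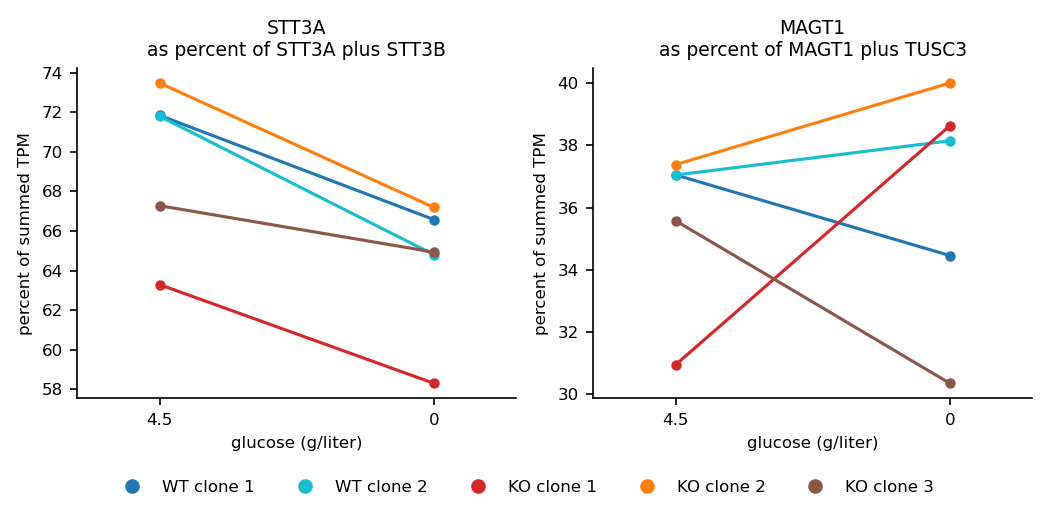
STT3A as percent of STT3A plus STT3B TPM (left) and MAGT1 as percent of MAGT1 plus TUSC3 TPM (right) at 4.5 and 0 g/liter glucose, 1 line per clone; the vertical axes do not start at 0. All 5 lines fall on the left, and on the right 3 rise and 2 fall.

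Of the other core subunits, DDOST and DAD1 were higher without glucose in 5 of 5 clones, at 0.29 and 0.24 for DDOST and 0.28 and 0.31 for DAD1, and neither was called. DDOST in WT was called when KO clone 1 at 0 g/liter was left out. RPN2, or ribophorin II, was also higher in 5 of 5 clones but by little, at 0.07 and 0.10. OST4, a very small subunit, had the highest level of the 44 genes. It was at 380 and 365 TPM in WT with glucose and 382 and 373 TPM without, and in KO at 335, 354 and 314 TPM with and 309, 414 and 435 TPM without, the low value being KO clone 1. Its fold changes were 0.02 and 0.19.

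None of the trimming genes was called. Their median log2 fold change was -0.29 in WT and -0.19 in KO, against -0.17 and -0.15 over all tested genes, with 5 of 6 below 0 in each genotype, and it moved to -0.13 and -0.04 under median-ratio scaling. PRKCSH, the glucosidase II beta subunit and the most abundant, was at 287 and 293 TPM in WT with glucose and 260 and 237 TPM without. Values in the KO clones were 279.5, 266 and 289 TPM with glucose and 256, 219 and 251 TPM without, so its groups did not overlap. Its fold changes were -0.22 and -0.20.

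MOGS, or glucosidase I, which removes the first glucose, had log2 fold changes of -0.55 ± 0.18 in WT (SE, limma adjusted p = 0.0526) and -0.23 ± 0.15 in KO (adjusted p = 0.264). It was lower in 4 of 5 clones, the exception being KO clone 1 at 26.7 TPM with and 30.5 TPM without glucose. MOGS in WT was called lower under 8 of the 19 alternatives, among them rescaling without mitochondrial genes and 4 of the 10 fits with a library left out. GANAB was called lower in both genotypes without KO clone 1 at 0 g/liter. GANAB, the catalytic subunit of glucosidase II, and MAN1B1, the ER mannosidase, were lower in 5 of 5 clones, at -0.27 and -0.17 for GANAB and -0.31 and -0.22 for MAN1B1. UGGT1, which puts glucose back on glycans of unfolded proteins, was higher in 4 of 5 clones at 0.22 and 0.15. Its relative UGGT2 was lower in 3 of 5 clones, at -0.36 and -0.02.

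Neighbouring genes of the pathway were read for comparison. Of 14 other ER N-glycan genes, 3 rose and 0 fell in WT, and 5 rose and 0 fell in KO. CALR and CANX, the lectin chaperones that bind monoglucosylated proteins, rose by 1.71 and 0.65 on the log2 scale in WT and by 1.69 and 0.64 in KO. PDIA3, the disulfide isomerase that works with both, rose by 1.53 and 1.39. TMEM258 and KRTCAP2, further subunits of the oligosaccharyltransferase, were not called in either genotype. Of 16 Golgi N-glycan genes 15 were tested, of which 0 were called in WT and 1 was called lower in KO (SLC35C1, a GDP-fucose transporter, -0.44).

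All 8 ER stress readouts (HSPA5, HSP90B1, DNAJB9, SDF2L1, HERPUD1, XBP1, DDIT3 and ATF4) rose in both genotypes, with a median log2 fold change of 1.86 in each. HSPA5, the ER chaperone BiP, rose by 2.55 in WT and 2.83 in KO, and ATF4, the transcription factor of the integrated stress response, rose least, by 0.79 and 0.72. Across the 44 genes the log2 fold changes ran from -0.65 to 0.47 in WT and from -0.72 to 0.54 in KO.

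No member was called between the genotypes at either glucose level. With 4.5 g/liter glucose 0 of 44 were called by limma, against 0.0745% of all tested genes, and 2 had an unadjusted p under 0.05. These were DPAGT1, at -0.40 (95% interval -0.72 to -0.07, adjusted p = 1.0), and UGGT2, at -0.53 (interval -1.004 to -0.06, adjusted p = 1.0), both lower in KO. Without glucose 0 of 44 were called, against 0.0373% of all tested genes, and ALG11 alone had an unadjusted p under 0.05, at -0.41 (interval -0.82 to -0.00, adjusted p = 1.0). The 95% interval lay within 0.5 of 0 on the log2 scale for 23 of the 44 genes with glucose and for 25 without it, and within 1 of 0 for 41 and 42. For the remaining genes the interval holds larger differences.

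The response to glucose removal was also compared between the genotypes. The difference in response (KO minus WT) ran from -0.47 for ALG11 to 0.33 for UGGT2. By limma 0 members were called, against 0.00745% of all tested genes, and 0 had an unadjusted p under 0.05. With clone as a replicate block, 0 were called and 2 had an unadjusted p under 0.05, ALG11 and DPM3. The 95% interval of the difference lay within 0.5 of 0 for 17 genes and within 1 of 0 for 37. The WT and KO responses do not share control libraries.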

How the data were processed

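The data were 10 RNA-seq libraries of MDA-MB-231 cells, from 2 WT clones and 3 clones with BACH1 knocked out, each grown for 40 hours with 4.5 or 0 g/liter glucose. The authors quantified reads of poly-A libraries with kallisto 0.44.0 on GRCh38.p12 and deposited TPM values per gene symbol. The submitters' processing notes also name bcl2fastq 2.19 and DESeq2. The annotation release and the way transcripts were summed are not given in the sources used here. TPM keeps no depth, so the depth per library is unknown and no counting interval is given. Of the 36459 symbols, 27 that had turned into dates were left out.

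A gene was kept if 2 or more libraries reached 1 TPM, which left 13418, and log2(TPM + 1) was fitted in R 4.3.3 by limma 3.58.1 to the group means, using all 10 libraries and leaving 6 residual degrees of freedom. Moderation was by eBayes with a trend, tests were two-sided, and genes were called at a Benjamini-Hochberg adjusted p under 0.05 over all genes tested. A fold change on this scale understates that of low genes. The contrasts were glucose in WT, glucose in KO, KO against WT at each glucose level and their interaction. P-values measure the spread between clones, with 1 library per clone and condition, and exact permutation of groups this small cannot reach 0.05. The code was tested on simulated data first. The submitters' titles give the same clone at both glucose levels, so libraries of 1 clone are paired. The correlation between a clone's deviations from its group means was 0.609, 0.426 and 0.506 in KO and 0.0991 in WT. No pair of libraries held identical values.

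The alternatives were a pseudocount of 0.1, no filter, a mean of at least 5 TPM, median-ratio scaling, quantile normalization, rescaling without the 13 mitochondrial genes, clone as a fixed or random block, and each library left out in turn. The block with median-ratio scaling was added after seeing the data, as were the random block for single genes and the CCACG search. Values in every library are given for called members (up to 4 per role), the most abundant member of each role, STT3A, STT3B, MAGT1 and TUSC3, and uncalled members with a fold of at least 1.5 in mean TPM. Transcripts for the ALG10 comparison came from GENCODE. A single gene of the comparison lists is counted but not reported here. The members and lists were chosen with earlier results of these data known.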

Additional observations from a re-analysis of the deposited data

Results flagged for a closer look

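ALG11 and DPM3 were picked out by their values, as the members with opposite signs in the genotypes in every clone. How many of all tested genes show that pattern was not counted. ALG11 was higher without glucose in both WT clones and lower in all 3 KO clones, and its response differed by -0.4704 on the log2 scale (KO minus WT, 95% interval -1.04 to 0.10). DPM3 was lower in both WT clones and higher in all 3 KO clones, a difference of 0.3271 (interval -0.24 to 0.89). The interaction contrast in limma called neither gene (adjusted p = 1.0 for both), and the cause was not tested. With clone as a fixed replicate block both had an unadjusted limma p under 0.05, and neither was called (adjusted p = 0.9997 for both). The genes were picked by the same values, so the unadjusted p adds no support. Groups of 2 and 3 libraries were too small to check for single outlying samples.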

How the results depend on the processing

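The counts of called members changed with the processing, while the 5 called genes kept their direction in every alternative. In WT, where 4 were higher and 1 lower, median-ratio scaling gave 7 higher, rescaling without mitochondrial genes 1 higher and 2 lower, and a mean of at least 5 TPM 2 lower. The replicate block gave 8 higher and 7 lower as a fixed term, 7 and 9 as a random term, and 10 and 2 with median-ratio scaling. Leaving out 1 KO library gave 1 to 5 higher and 1 to 4 lower. Fits without 1 WT library left a lone library in its group, so their counts are not given. In KO, where 3 were higher and 1 lower, median-ratio scaling gave 8 higher, quantile normalization 5 higher, rescaling without mitochondrial genes 4 lower and a mean of at least 5 TPM 3 lower. The replicate block gave 7 higher and 8 lower as a fixed term, 8 and 9 as a random term, and 12 and 2 with median-ratio scaling. Leaving out 1 library gave 3 to 6 higher and 1 to 3 lower. Counts of members called between genotypes or for a difference in response were 0 in every alternative. Of all 13418 genes tested under quantile normalization, 1370 were called higher and 1657 lower in KO. For median-ratio scaling, rescaling and the fixed block, the calls over all tested genes are given above. None are given for the 5 TPM filter, the random block, the block with median-ratio scaling or the leave-out fits. The member counts under those settings are therefore not read as particular to the members. The mean MAGT1 difference ran from -1.02 to 2.20 points and the STT3A difference from -5.89 to -4.73 points with 1 clone left out. The 17 genes with values printed for every library gave 574 alternative values on the same side of the threshold, 35 newly called and 33 no longer called, with 0 reversed calls. Over all 44 genes 98 of 1666 alternative values were newly called. The causes of these shifts were not tested. With 2 and 3 clones per group, 1 library each and unknown depth, changes as small as most of those seen here were near the limit of the test, and fewer transcripts per cell cannot be told apart from a larger share taken by other genes.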
